A study of Homo sapiens with 6 samples.

Results

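The genes described here are 60 protein-coding genes of the long arm of human chromosome 13, from MPHOSPH8 near the centromere to CDC16 near the telomere, that were listed because the arm's transcripts were lower as a block in crizotinib-resistant lung cancer cells. They are 60 of 51537 genes in the table, all 60 were found in it by symbol, and GENCODE 29 places all 60 on chromosome 13. A further 251 protein-coding genes of the chromosome were measured and are used for comparison. The members were selected on this measured difference in TPM between resistant and control cells, so their own differences are given as a description, with no test.

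The tested cells were crizotinib-resistant H3122 cells, profiled in 3 libraries, and the other 3 libraries came from control H3122 cells, the line from which the resistant cells were raised. H3122 is a human lung adenocarcinoma line known for an EML4-ALK fusion, and crizotinib is a kinase inhibitor that blocks ALK. The labels' protocols state that resistance was raised by stepping crizotinib up from 0.1 to 10 µM, with drug kept in the medium during selection. The labels do not say whether drug was present at harvest, whether the resistant cells were 1 clone, or whether the libraries of a group were separate cultures. The p-values below therefore rest on a spread between libraries that could be purely technical.

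Chromosome 13 is acrocentric: its short arm carries repeated ribosomal RNA genes, and its protein-coding genes lie on the long arm. The arm holds RB1, the retinoblastoma tumour suppressor that restrains E2F transcription factors, and genes for parts of large assemblies such as Mediator, the RNA exosome, cohesin, Integrator and the anaphase-promoting complex, whose other subunits are encoded elsewhere in the genome. Tumour genomes often gain or lose whole chromosome arms, and transcript levels of a gained or lost arm tend to shift together. DNA copy number was not analysed here, and fewer cells with a transcript and less transcript per cell cannot be told apart in bulk RNA.

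Levels are TPM, in which reads per gene length are scaled to sum to 1000000 in each library. Each change is the resistant mean of log2(TPM + 1) minus the control mean, with a standard error, means are given with SD and n = 3 per group, and a gene was tested when it reached 1 TPM in at least 3 libraries. The added 1 TPM makes the log2 change of low genes smaller than the ratio of their levels. Of 16077 genes tested with limma, 3963 were called lower and 3852 higher at an adjusted p below 0.05, and the median change over all tested genes was -0.0044. Estimated depth was 29856927 to 36695580 reads per library. The epithelial markers EPCAM, CDH1, KRT8, KRT18 and KRT19 stood between 177 and 6842 TPM in all 6 libraries. NKX2-1 and NAPSA, markers of lung adenocarcinoma, were at most 0.751 and 2.05 TPM, so these 2 defining markers of the labelled tumour type were absent or near absent. The immune markers PTPRC, CD3E and CD68 and the fibroblast markers COL1A2, PDGFRB and LUM were all below 0.6 TPM, while the endothelial markers PECAM1 and CDH5 were at 0.777 to 7.64 TPM.

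Of the 60 listed genes, 58 reached the level needed for a test. ALOX5AP, which activates leukotriene synthesis, was at 0.0791, 0.0820 and 0 TPM in the resistant libraries and was listed at 0 in all control libraries. GPC6, a cell-surface heparan sulfate proteoglycan, was listed at 0 in all 6 libraries. The other 58 had a lowest estimate of 50.7 reads in any library, for UCHL3, and their control means ran from 2.30 TPM for KATNAL1 to 643 TPM for TPT1.

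The block was a moderate, shared decrease. The median change of the 58 genes was -0.61, the interquartile range -0.77 to -0.45, and the whole range -1.10 for XPO4 to 0.44 for KATNAL1. As a level without a pseudocount, the median gene stood at 63.9% of its control mean, with quartiles at 57.6% and 71.95%. Of the 58 genes, 48 stood between 50% and 80% of control, 4 below 50%, 4 between 80% and 100%, and 2 above 100%. The change was below 0 in 56 of the 58, against 50.5% of all tested genes. The limma fit called 54 lower and 1 higher, where 24.7% and 24.0% of all tested genes were called, and in 55 all resistant libraries lay below all control libraries, where 28.7% of all tested genes did. Since the list was made from this contrast, these counts describe the list and are read no further.

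**Figure D1:**
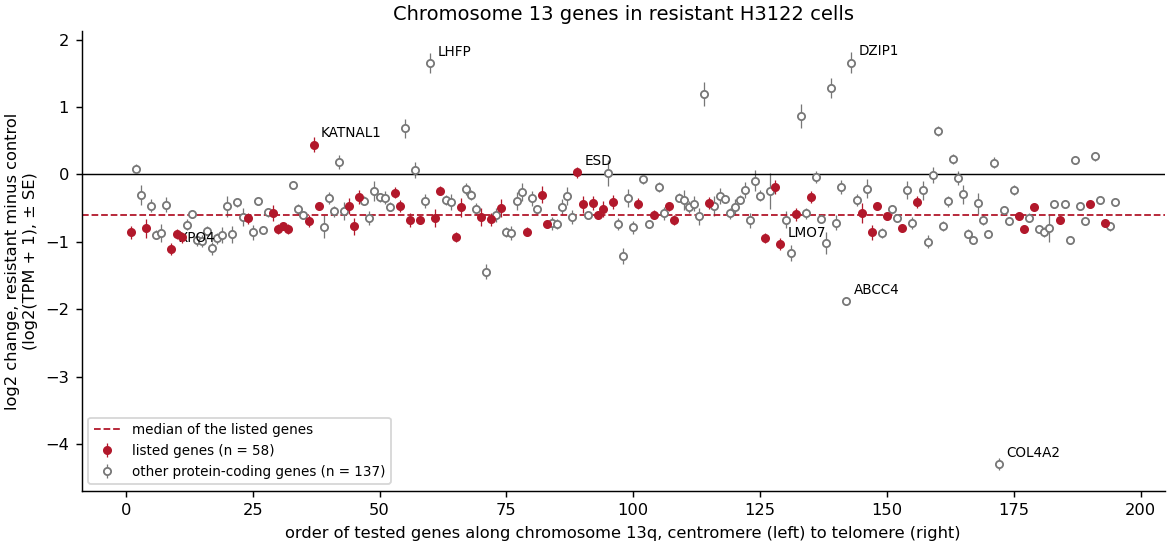
Log2 change, resistant minus control, with its standard error, for the 58 tested listed genes and the 137 other tested protein-coding genes of chromosome 13, in their order along the arm. The listed genes lie below 0 from end to end, around a median of -0.61, with KATNAL1 above 0 and ESD at 0.031 as exceptions, while COL4A2, ABCC4, DZIP1 and LHFP, which are not listed, stand far from it.

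The shift was present in every library. Relative to the mean of the control libraries, the median listed gene stood at 69.1%, 60.9% and 62.3% in the resistant libraries, against 92.5%, 106% and 102% in the control libraries. The first resistant library was the highest of its group for 49 of the 58 genes, and the first control library the lowest of its group for 51. Over 12015 tested protein-coding genes of other chromosomes those shares were 44.1% and 72.4%, and the median gene there stood between 97.3% and 101% of control in the resistant libraries. Between single libraries the members' median change ran from -0.37, for the first resistant against the first control library, to -0.76, for the second resistant against the second control library. With both first libraries left out, an alternative added after the data were seen, the median change was -0.70.

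**Figure D2:**
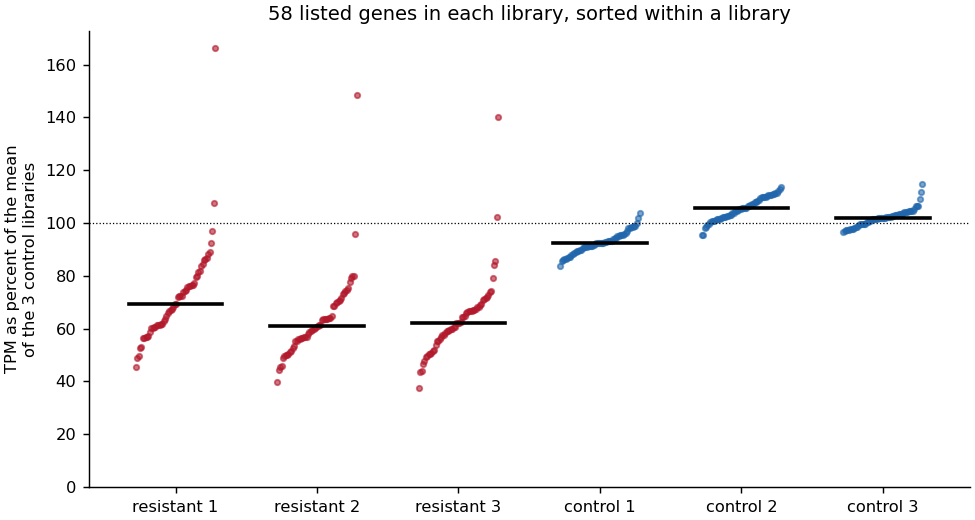
TPM of the 58 tested listed genes in each library as a percent of the mean of the 3 control libraries, sorted within a library, with a bar at the median. The medians lie at 60.9% to 69.1% in the resistant and 92.5% to 106% in the control libraries, and the point above 140% in each resistant library is KATNAL1.

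The decrease ran the length of the arm, deepest in the list's first stretch. In 6 consecutive stretches of 9 or 10 listed genes, the median change was -0.81 from MPHOSPH8 to PAN3 (19633681 to 28295335), -0.47 from UBL3 to PROSER1, -0.63 from COG6 to GTF2F2, -0.46 from TPT1 to RNASEH2B, -0.58 from INTS6 to IPO5 and -0.62 from STK24 to CDC16 (98445185 to 114272723). In the first stretch no listed gene was above -0.57, and the median gene stood at 54.6% of control. The 22 unlisted coding genes inside that stretch had a median of -0.79, and the 35 inside the last stretch -0.51. In the stretches between, the unlisted medians were -0.35, -0.41, -0.60 and -0.38, so that only from TPT1 to RNASEH2B did they lie below the listed genes. PSPC1, unlisted, inside the first stretch and named after its values were seen, was at 0.079 and was not called. Next neighbours on the list differed by a median of 0.22, and any 2 listed genes also by 0.22. The interquartile range within the 6 stretches, in order, was 0.11, 0.31, 0.18, 0.15, 0.38 and 0.24, against 0.32 over the whole list. Across the 58 genes, as a description, Pearson's r of the log2 change was -0.26 with log2 control TPM, -0.0017 with log2 gene span, -0.13 with log2 exon length and 0.11 with place along the arm. The listed genes share 1 contrast and 6 libraries, so these values carry no test.

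Promoter sequence is shown for a pair of the lower genes and for KATNAL1, the listed gene called higher. RefSeq gave a start within 500 bases of the GENCODE 29 gene start for 48 of the 60 listed genes. In the 250 bases before those starts the median GC content was 68.2%, against 58% over 35116 RefSeq promoters, and ranged from 35.6% to 82.8%. The GC box GGGCGG stood in 70.8% of the 48 windows and 42.6% of all promoters, CCAAT in 29.2% and 32.0%, TATAAA in 12.5% and 10.7%, and the ETS core CCGGAAG in 14.6% and 8.52%, on either strand. Across the 46 of these genes that were tested, r of GC content with the log2 change was -0.044. The 35116 promoters were not matched to the list for expression or chromosome, so the higher GC content was not tested as a trait of the listed genes. The lowest and the highest GC content among listed genes with a single RefSeq start at most 15 bases from the annotated one and no other gene in the window belonged to UFM1 and ANKRD10, at 61.3% and 56.3% of their control levels. KATNAL1 did not meet that rule, with 2 RefSeq starts and the one used 67 bases from the annotated one. The UFM1 window is printed with 248 bases, without the 2 that lie after the GENCODE 29 gene start. Capitals mark matches to the 4 motifs on either strand. The UFM1 window is chr13:38349601-38349848 on the plus strand with 41.9% GC, the ANKRD10 window chr13:110915070-110915319 on the minus strand with 78.8% GC, and the KATNAL1 window chr13:30307552-30307801 on the minus strand with 70.8% GC (RefSeq, GRCh38.p14).
UFM1: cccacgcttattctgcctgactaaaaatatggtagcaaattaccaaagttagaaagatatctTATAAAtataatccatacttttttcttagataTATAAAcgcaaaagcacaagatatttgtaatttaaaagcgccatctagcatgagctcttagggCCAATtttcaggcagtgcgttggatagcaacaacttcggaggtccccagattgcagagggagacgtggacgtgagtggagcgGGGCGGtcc
ANKRD10: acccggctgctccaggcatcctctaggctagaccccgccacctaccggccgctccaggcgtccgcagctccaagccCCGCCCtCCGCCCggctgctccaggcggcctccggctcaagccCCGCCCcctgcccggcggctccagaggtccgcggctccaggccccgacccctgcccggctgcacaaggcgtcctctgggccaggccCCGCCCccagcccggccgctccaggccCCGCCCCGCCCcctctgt
KATNAL1: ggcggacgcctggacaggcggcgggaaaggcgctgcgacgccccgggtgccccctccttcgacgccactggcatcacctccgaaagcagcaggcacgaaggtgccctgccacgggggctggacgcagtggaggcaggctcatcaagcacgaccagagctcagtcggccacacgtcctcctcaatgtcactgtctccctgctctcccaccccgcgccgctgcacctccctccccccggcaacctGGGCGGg
The UFM1 window holds 2 TATAAA matches, 1 CCAAT and 1 GC box, the ANKRD10 window 6 GC boxes and neither CCAAT nor TATAAA, and the KATNAL1 window 1 GC box. The log2 change was -0.67 for UFM1, -0.81 for ANKRD10 and 0.44 for KATNAL1.

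The 15 listed genes of transcription and chromatin were all below 0, with a median of -0.61. RB1 (ENSG00000139687, chromosome 13, 48303726 to 48599436) had 11.6, 8.68 and 9.60 TPM in the resistant libraries, against 13.04, 15.9 and 14.7 TPM in the control libraries. The groups did not overlap, and the resistant mean was 68.3% of control, a change of -0.51 ± 0.11. TFDP1, the partner with which E2F factors bind DNA, had 124, 139 and 133 TPM in the resistant libraries, against 174, 180.5 and 183 TPM in the control libraries. Here too all resistant values were the lower ones, with the mean at 73.6% of control and a change of -0.44 ± 0.052. CDK8, the kinase of the Mediator complex, had 16.1, 14.4 and 14.3 TPM in the resistant libraries, against 21.7, 25.2 and 25.2 TPM in the control libraries. The highest resistant value was below the lowest control value, and the mean stood at 62.2% of control.

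SAP18 and ELF1 were the most reduced of this role. SAP18 (ENSG00000150459, chromosome 13, 21140514 to 21149084), a subunit shared by a histone deacetylase complex and a splicing complex, had 33.2, 37.001 and 33.02 TPM in the resistant libraries, against 58.99, 73.3 and 67.9 TPM in the control libraries. ELF1 (ENSG00000120690, chromosome 13, 40932028 to 41061440), an ETS-family transcription factor, had 24.2, 21.6 and 20.4 TPM in the resistant libraries, against 40.02, 44.1 and 44.7 TPM in the control libraries. In each the resistant values lay at about the same distance below control, with means at 51.5% and 51.4% of control and changes of -0.93 ± 0.085 and -0.93 ± 0.074. ELF1 overlaps the start of WBP4 on the other strand, and WBP4, a spliceosome component, was at 69.2% of control. FOXO1, a transcription factor held out of the nucleus by insulin signalling, had 9.41, 8.59 and 9.13 TPM in the resistant libraries, against 10.7, 11.03 and 10.9 TPM in the control libraries. Its groups did not overlap, but the mean was 83.2% of control, among the smallest decreases on the list.

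HMGB1, an abundant protein that bends DNA, had 124, 123 and 114 TPM in the resistant libraries, against 155, 177 and 169.8 TPM in the control libraries. The groups did not overlap and the mean was 71.99% of control. This value is uncertain, because 47 named processed copies of HMGB1 in the table summed to 212 TPM in resistant cells and 264 TPM in control cells, more than the gene itself, and the handling of reads that match several copies is not given in the sources used here. The log2 changes of the other genes of this role were -0.86 for MPHOSPH8, a reader of methylated histone H3 in the HUSH silencing complex, -0.85 for TSC22D1, a leucine zipper protein, and -0.80 for ZMYM2, a zinc finger corepressor. POLR1D, a subunit shared by RNA polymerases I and III, was at -0.76, and ING1, which reads a methylated histone mark, at -0.61. SUPT20H of the SAGA coactivator was at -0.47, MED4 of Mediator at -0.42 and GTF2F2 of the general factor TFIIF at -0.30. GTF2F2 had 26.5, 20.3 and 19.7 TPM in the resistant libraries, against 24.96, 30.3 and 26.7 TPM in the control libraries, so that its groups overlapped through the first resistant library.

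The 7 genes of RNA handling and translation had a median of -0.57. TPT1 (ENSG00000133112, chromosome 13, 45333471 to 45341370), the translationally controlled tumour protein and the most abundant gene on the list, had 396, 386 and 379.6 TPM in the resistant libraries, against 614, 659 and 655 TPM in the control libraries. The libraries within a group lay close together, the groups were far apart, and the mean was 60.3% of control, a change of -0.73 ± 0.042. Its 14 named processed copies summed to less than 1 TPM in each group. EXOSC8, a subunit of the RNA exosome, had 16.7, 15.5 and 15.4 TPM in the resistant libraries, against 17.4, 21.7 and 19.1 TPM in the control libraries. All resistant values were lower, but by little, with the mean at 81.8% of control; EXOSC8 overlaps SUPT20H and ALG5 on the other strand, and whether counting used strand is not given in the sources used here. The changes were -0.81 for PAN3, which anchors a poly(A) tail deadenylase, -0.68 for INTS6 of the Integrator complex, -0.57 for MTIF3, a mitochondrial translation initiation factor, -0.49 for WBP4 and -0.33 for RBM26, an RNA-binding protein.

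The 3 nuclear transport genes were all lower, by unequal amounts. XPO4 (ENSG00000132953, chromosome 13, 20777329 to 20903048), an exportin, had 4.38, 3.83 and 3.60 TPM in the resistant libraries, against 8.91, 10.1 and 9.75 TPM in the control libraries. No other listed gene was reduced as much: its mean was 41.02% of control, a change of -1.10 ± 0.093. KPNA3, an importin alpha, averaged 28.9 ± 1.59 TPM in resistant cells and 44.1 ± 2.78 TPM in control cells, 65.4% of control, and IPO5, an importin of the beta family, averaged 42.8 ± 1.53 TPM in resistant cells and 59.6 ± 2.49 TPM in control cells, 71.8% of control (SD, n = 3 each).

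Signalling genes held several of the largest decreases. LATS2, a kinase of the Hippo pathway, had 5.06, 5.32 and 5.12 TPM in the resistant libraries, against 10.2, 10.7 and 10.2 TPM in the control libraries. LMO7 (ENSG00000136153, chromosome 13, 75620434 to 75859870), an adaptor at cell junctions, had 18.3, 15.8 and 15.2 TPM in the resistant libraries, against 31.95, 37.2 and 34.4 TPM in the control libraries. TBC1D4 (ENSG00000136111, chromosome 13, 75283503 to 75482114), which controls glucose transporter traffic downstream of AKT, had 9.32, 7.87 and 8.98 TPM in the resistant libraries, against 17.5, 18.4 and 17.2 TPM in the control libraries. In all 3 genes every resistant value was below every control value, with means at 49.8%, 47.6% and 49.3% of control and changes of -0.88 ± 0.069, -1.03 ± 0.085 and -0.94 ± 0.076. RAP2A, a small GTPase, changed by -0.86, STK24, a kinase of the germinal center kinase family, by -0.62, AKAP11, an anchor for protein kinase A, by -0.50, and STARD13, a GTPase-activating protein, by -0.34.

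**Figure D3:**
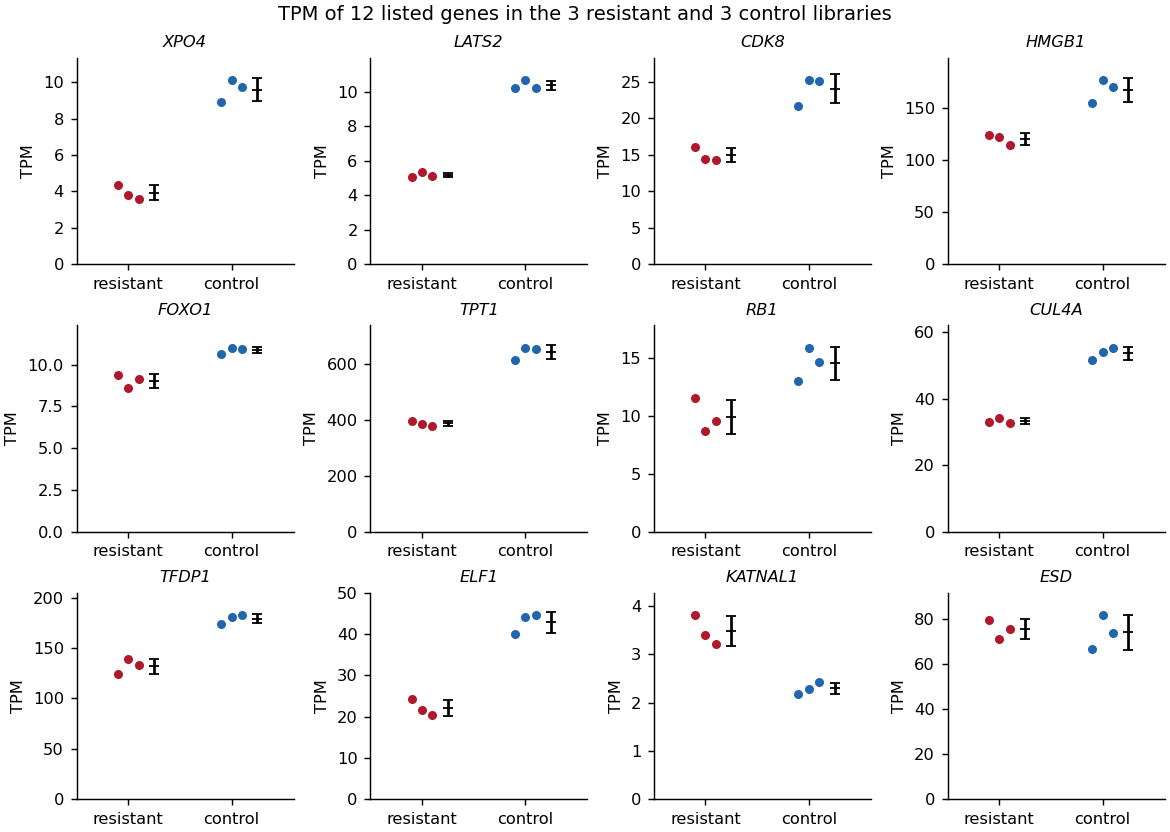
TPM in each library of 12 listed genes, resistant left of control, with the mean and SD of 3 libraries beside the points; each vertical axis starts at 0. In 10 of the 12 genes all resistant values lie below all control values, in KATNAL1 all lie above, and in ESD the groups overlap.

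Of the 6 ubiquitin-related genes, CUL4A, the scaffold of a ubiquitin ligase, had 32.9, 34.1 and 32.5 TPM in the resistant libraries, against 51.6, 53.9 and 55.4 TPM in the control libraries. The groups did not overlap and the mean was 61.9% of control, a change of -0.68 ± 0.046. UCHL3, a ubiquitin hydrolase, had 3.60, 2.93 and 3.33 TPM in the resistant libraries, against 3.81, 3.71 and 4.15 TPM in the control libraries. The highest resistant value was just below the lowest control value, and the mean was 84.5% of control, the smallest decrease of the list without overlap. LNX2, a ubiquitin ligase, changed by -0.81, UBL3, a membrane-anchored ubiquitin-like protein, by -0.69, UFM1, a ubiquitin-like modifier, by -0.67, and MYCBP2, a large ligase known from nerve growth, by -0.59.

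Genes of chromosomes and mitosis were lower with the exception of KATNAL1. PDS5B, a regulator of cohesin, averaged 4.75 ± 0.676 TPM in resistant cells and 8.79 ± 1.13 TPM in control cells, and CDC16, a subunit of the anaphase-promoting complex, averaged 24.6 ± 0.291 TPM in resistant cells and 41.2 ± 2.70 TPM in control cells (SD, n = 3 each). They stood at 54.003% and 59.7% of control. TUBGCP3, part of the gamma-tubulin ring that starts microtubules, changed by -0.48, and RNASEH2B, a subunit of the enzyme that removes ribonucleotides from DNA, by -0.47. KATNAL1 (ENSG00000102781, chromosome 13, 30202630 to 30307484), a microtubule-severing enzyme, had 3.82, 3.41 and 3.22 TPM in the resistant libraries, against 2.19, 2.29 and 2.42 TPM in the control libraries. All resistant values were higher, and the mean was 152% of control, a change of 0.44 ± 0.11. It was also the least abundant tested gene of the list.

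The 6 genes of membranes and secretion were close together, from -0.80 to -0.41. TM9SF2, an abundant endomembrane protein, averaged 136 ± 4.24 TPM in resistant cells and 238 ± 14.003 TPM in control cells, and ITM2B, a membrane protein known from familial dementia, averaged 102 ± 4.39 TPM in resistant cells and 155 ± 5.62 TPM in control cells (SD, n = 3 each). COG6 of the Golgi tethering complex changed by -0.64, UGGT2, a sensor of misfolded glycoproteins, by -0.58, VPS36 of the ESCRT-II sorting complex by -0.43, and FNDC3A by -0.41.

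Among metabolic genes, ESD (ENSG00000139684, chromosome 13, 46771256 to 46797232), an esterase that clears formaldehyde adducts, did not share the decrease. It had 79.7, 71.02 and 75.6 TPM in the resistant libraries, against 66.5, 81.8 and 73.7 TPM in the control libraries. The groups overlapped, and the change of 0.031 ± 0.08 turned to -0.043 without the first control library, to -0.0092 without the first resistant library and to -0.082 without both. VWA8 changed by -0.66, NAA16, an auxiliary subunit of an N-terminal acetyltransferase, by -0.63, SUCLA2, a subunit of the ATP-forming succinyl-CoA ligase, by -0.44, and PCCA, a subunit of propionyl-CoA carboxylase, by -0.41. The 4 listed genes whose roles are less well known, ANKRD10, PROSER1, N4BP2L2 and RCBTB1, changed by -0.81, -0.68, -0.47 and -0.43.

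Most other tested genes of the chromosome were lower too. Of the 251 other protein-coding genes, 137 were tested, with a median of -0.48 and an interquartile range of -0.74 to -0.31. The median gene stood at 67.98% of control. The limma fit called 100 of them lower (73.0%) and 10 higher (7.30%), against 24.7% and 24.0% of all tested genes. Their standard deviation, 0.60, was larger than the 0.26 of the listed genes, and 0.50 without COL4A2. The listed genes were selected on this contrast, and whether that narrowed their spread was not tested. The unlisted genes also reached lower levels, with a lowest mean of 0.885 TPM, against 2.89 TPM for listed genes. The count of 10 called higher was sensitive to single libraries and was 6 without the first, 4 without the second and 4 without the third resistant library. Part of that drop came from the filter. DZIP1, LHFP, SLITRK5 and THSD1 were below 1 TPM in every control library and could not be fitted without a resistant library.

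Among these unlisted genes 15 had a change above 0, at places from end to end of the arm. SCEL (ENSG00000136155, chromosome 13, 77535674 to 77645263), a precursor of the cornified envelope, rose and had 7.13, 4.66 and 6.26 TPM in the resistant libraries, against 2.15, 3.003 and 3.40 TPM in the control libraries (log2 0.86 ± 0.18, adjusted p = 0.0051). ITGBL1 (ENSG00000198542, chromosome 13, 101452593 to 101720856), an integrin-like secreted protein, rose and had 8.61, 7.95 and 8.53 TPM in the resistant libraries, against 4.98, 4.91 and 5.15 TPM in the control libraries (log2 0.64 ± 0.074, adjusted p = 3.62e-04). In each the groups did not overlap. GAS6, the ligand of the AXL receptor, rose by 0.27 (adjusted p = 0.0134), ADPRHL1 by 0.21 (adjusted p = 0.0139) and KDELC1, an endoplasmic reticulum glycosyltransferase now named POGLUT2, by 0.23 (adjusted p = 0.046). The call of GAS6 was lost without the third control or the third resistant library (adjusted p = 0.0577 and 0.0540). That of ADPRHL1 was lost without the third control or the second resistant library (adjusted p = 0.0506 and 0.0535). That of KDELC1 was lost whichever library was left out (adjusted p = 0.0502 to 0.141). The largest positive changes were in genes too low for the naming rule and named after their values were seen: DZIP1 averaged 3.06 ± 0.414 TPM in resistant cells and 0.285 ± 0.102 TPM in control cells, LHFP 3.45 ± 0.534 TPM in resistant cells and 0.410 ± 0.0494 TPM in control cells, SLITRK5 2.09 ± 0.165 TPM in resistant cells and 0.267 ± 0.0346 TPM in control cells and THSD1 1.62 ± 0.232 TPM in resistant cells and 0.148 ± 0.0998 TPM in control cells (SD, n = 3 each), all called higher. DZIP1, LHFP, SLITRK5 and THSD1 passed the filter only through the resistant libraries, where they were high, so their calls are read no further. THSD1 overlaps VPS36 on the same strand.

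Of the unlisted genes that fell furthest, COL4A2, ABCC4, RGCC and CAB39L lay below every listed gene, and SPATA13, TMTC4 and MICU2 lay within the range of the listed genes. COL4A2 (ENSG00000134871, chromosome 13, 110305812 to 110513209), a chain of basement membrane collagen, fell and had 0.0944, 0.168 and 0.144 TPM in the resistant libraries, against 21.3, 21.2 and 21.1 TPM in the control libraries (log2 -4.29 ± 0.086, adjusted p = 3.74e-07). COL4A2 passed the filter only through the control libraries, where it was high, so its call is read no further. Its neighbour COL4A1, which shares its promoter region and was named after its values were seen, had 11.8, 13.5 and 13.4 TPM in the resistant libraries, against 11.02, 12.001 and 10.9 TPM in the control libraries and was not called (adjusted p = 0.0951). ABCC4 (ENSG00000125257, chromosome 13, 95019829 to 95301475), an ATP-driven exporter of cyclic nucleotides, fell and had 12.7, 12.8 and 12.5 TPM in the resistant libraries, against 45.7, 51.96 and 50.2 TPM in the control libraries (log2 -1.88 ± 0.06, adjusted p = 1.46e-06). RGCC, a regulator of the cell cycle, fell by 1.44, CAB39L, a scaffold of the LKB1 kinase, by 1.21, and SPATA13, a guanine nucleotide exchange factor, by 1.09 on the log2 scale. TMTC4 and MICU2, a regulator of mitochondrial calcium uptake, fell by 0.995 and 0.98. Leaving COL4A2 aside, the groups did not overlap in any of these named genes that fell. Their adjusted p-values were at most 1.57e-04, that of CAB39L.

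Chromosome 13 had the lowest median of the 23 chromosomes and the mitochondrial genome. Its 195 tested protein-coding genes, members included, had a median change of -0.52, or 66.5% of control, and 79.0% of them were called lower. The next lowest were chromosome 7 (571 genes, median -0.33, 57.97% called lower) and chromosome X (388 genes, median -0.32, 53.9%). The highest was chromosome 21 (112 genes, median 0.30, 3.57% called lower and 56.2% higher). The interquartile range was 0.40 on chromosome 13, 0.56 on chromosome 7, 0.71 on X and 0.44 on 21. These medians describe the libraries, and the differences between chromosomes were not tested.

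**Figure D4:**
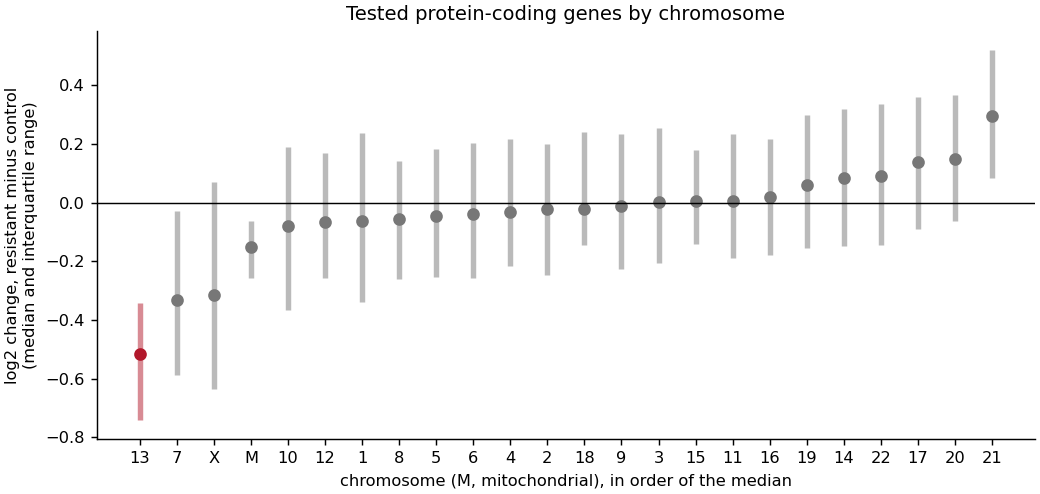
Median log2 change, resistant minus control, of the tested protein-coding genes of each chromosome, with the interquartile range as a bar, in order of the median. Chromosome 13 lies lowest at -0.52 with its upper quartile below 0, and chromosome 21 highest at 0.30.

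Many listed genes encode parts of assemblies whose other parts lie on other chromosomes. A list of 138 partner subunits and close paralogs outside chromosome 13 was compared, of which 134 were tested. Their median change was -0.074, with 33 called lower (24.6%) and 22 higher (16.4%), against 24.7% and 24.0% of all tested genes. With both first libraries left out, the count called lower was 52. In that fit the median over all tested genes was also lower, -0.048 against -0.0044, and the share of all tested genes called lower is not given here. On chromosomes other than 7 and X, 119 were tested, with a median of -0.061, 23 called lower and 22 higher. Of the 134, 128 lay above their listed gene, a count that follows in part from how the list was made. For 37 of 39 listed genes with a tested partner the median partner lay above the listed gene, and the exceptions were HMGB1 and FOXO1.

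**Figure D5:**
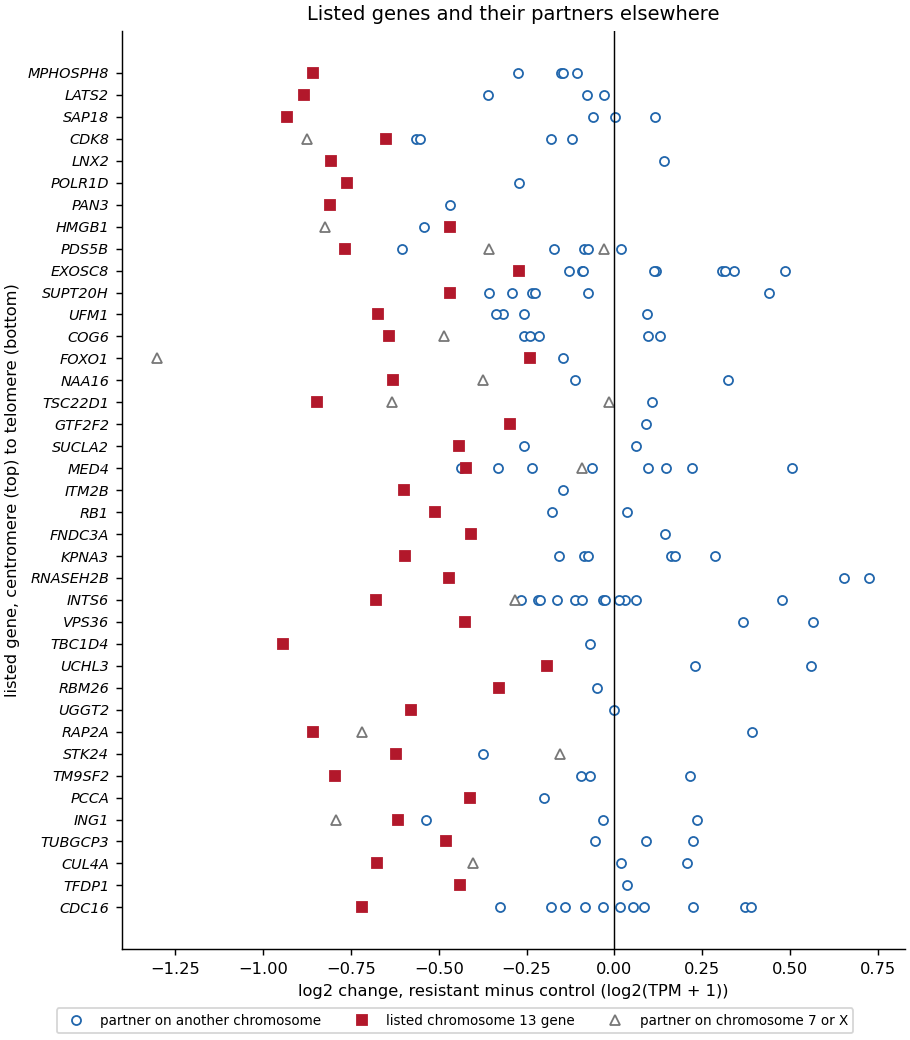
Log2 change, resistant minus control, of 39 listed genes (squares) and of their tested complex partners and paralogs on chromosomes 7 and X (triangles) and on the other chromosomes (circles). Most partners scatter around 0 to the right of their listed gene. Only for HMGB1 and FOXO1 does the median partner lie to the left, and single partners of CDK8, MED4 and ING1 do so too.

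For the cell division assemblies, the counts stand beside 48.6% of all tested genes called in either direction. None of the 11 tested partners of CDC16 in the anaphase-promoting complex was called by limma (4 had an unadjusted p below 0.05, and no other tool was run), with changes of -0.32 to 0.39 and a median of 0.017, while CDC16 was at -0.72. Of 7 cohesin genes set beside PDS5B (-0.77), 6 were not called and STAG1, a cohesin subunit, fell and averaged 6.53 ± 0.514 TPM in resistant cells and 10.4 ± 0.766 TPM in control cells (adjusted p = 0.001). Of 3 gamma-tubulin ring genes set beside TUBGCP3, TUBGCP6 was called higher and the other 2 were not called.

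For the transcription assemblies, the counts stand beside 24.7% of all tested genes called lower and 24.0% called higher. Of 13 tested Integrator genes set beside INTS6 (-0.68), 10 were not called, 2 were called lower and 1 higher, with a median of -0.093. Of 9 Mediator core genes set beside MED4, MED6 rose and averaged 20.6 ± 0.642 TPM in resistant cells and 14.2 ± 1.52 TPM in control cells (adjusted p = 0.00158), 2 were called lower and 6 were not called. Of 5 genes set beside CDK8, from the kinase module of Mediator and its paralogs, 3 were called lower and 2 were not called. MED12, a module subunit on chromosome X, fell and averaged 24.98 ± 0.729 TPM in resistant cells and 46.7 ± 2.71 TPM in control cells (adjusted p = 2.46e-05). The paralogs MED13L and CDK19 fell by 0.55 and 0.57, while CCNC, the cyclin of CDK8, and MED13 were not called. The paralog TFDP2 was not called (0.035), nor was GTF2F1 (0.09), the other subunit of TFIIF, while POLR1C, the partner of POLR1D, fell by 0.27. The POLR1C call was lost without the second control, the first resistant or the third resistant library (adjusted p = 0.0702, 0.0507 and 0.0573).

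Several partners moved the opposite way to their chromosome 13 subunit. RNASEH2C, another subunit of RNase H2, rose and averaged 76.1 ± 5.03 TPM in resistant cells and 45.6 ± 2.01 TPM in control cells (adjusted p = 7.96e-05), and the catalytic subunit RNASEH2A rose and averaged 1.84 ± 0.446 TPM in resistant cells and 0.789 ± 0.0361 TPM in control cells (adjusted p = 0.0141; SD, n = 3 each). RNASEH2A is a low gene that passed the 1 TPM filter only through the resistant libraries, and could not be fitted when a resistant library was left out. Its call is read no further, and was lost with both first libraries left out (adjusted p = 0.0760). VPS25, which forms ESCRT-II with VPS36, rose and averaged 70.3 ± 4.08 TPM in resistant cells and 47.2 ± 2.72 TPM in control cells (adjusted p = 2.72e-04), and SNF8, also of ESCRT-II, was also called higher (0.36). VPS25 and SNF8 both lie on chromosome 17, where 41.3% of tested coding genes were called higher. Of 9 exosome genes set beside EXOSC8, 4 rose and 5 were not called, where 24.0% of all tested genes were called higher, and the median was 0.12. UCHL1, a neuronal-type paralog of UCHL3, rose and averaged 375 ± 30.2 TPM in resistant cells and 253 ± 1.63 TPM in control cells (adjusted p = 2.49e-04).

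Paralogs of several listed genes also fell, several of them on chromosomes X and 7. HMGB2 fell and averaged 172 ± 4.36 TPM in resistant cells and 251 ± 17.3 TPM in control cells (adjusted p = 2.20e-04), and HMGB3, on chromosome X, averaged 103 ± 2.33 TPM in resistant cells and 184 ± 11.8 TPM in control cells (adjusted p = 2.93e-05). FOXO4, also on X, fell and averaged 12.5 ± 0.165 TPM in resistant cells and 32.2 ± 1.47 TPM in control cells (adjusted p = 4.80e-06), and FOXO3 was not called (-0.15). RAP2C, on X, fell by 0.72 beside RAP2A, and its paralog RAP2B rose by 0.39. TSC22D4, on chromosome 7, fell by 0.63 beside TSC22D1. ING3, on chromosome 7, and ING5, relatives of ING1, fell by 0.79 and 0.54, and ING2 rose by 0.24. X and 7 are the chromosomes whose medians were lowest after chromosome 13.

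For listed genes with a single partner on the list, the partner was mostly not called. PAN2, the catalytic partner of PAN3, fell by 0.47, and PCCB, the other subunit of propionyl-CoA carboxylase, fell by 0.20. The PCCB call was lost without the second or the third control library or the first or the third resistant library (adjusted p = 0.0867, 0.0890, 0.0697 and 0.0927). UGGT1 was at -0.00072 beside UGGT2, LNX1 at 0.14 beside LNX2, FNDC3B at 0.15 beside FNDC3A, TBC1D1 at -0.069 beside TBC1D4 and RBM27 at -0.049 beside RBM26, none of them called. ITM2C, the paralog of ITM2B, was at -0.15 and was not called (adjusted p = 0.0581), but passed without the first control or the second resistant library (adjusted p = 0.0246 and 0.0373). IPO4 and STARD8 were too low to test.

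Genes that RB1 restrains through E2F factors were followed because RB1 and TFDP1 were both lower. Of 22 E2F targets tested, 9 rose (40.9%), 3 fell (13.6%) and 10 were not called, against 24.0% and 24.7% of all tested genes, and their median change was 0.082. CDC6, which loads the replicative helicase, rose and averaged 70.8 ± 3.82 TPM in resistant cells and 43.8 ± 1.89 TPM in control cells (adjusted p = 7.02e-05). CDK1, the kinase of mitotic entry, rose and averaged 197 ± 20.7 TPM in resistant cells and 125 ± 10.5 TPM in control cells (adjusted p = 7.70e-04), and TK1, a thymidine kinase, rose by 0.46 (adjusted p = 1.15e-04). Of those that rose, CDC6 and TK1 lie on chromosome 17 and E2F1 and MYBL2 on 20, where 41.3% and 44.4% of tested coding genes were called higher. The others that rose lie on chromosomes 2, 10, 18 and 19, where 20.8% to 30.6% were. Those that fell included ORC1, an origin-binding subunit (-0.95), and MCM7 of the replicative helicase, on chromosome 7 (-0.84). The list was chosen with earlier results of these data known. The targets named here were chosen after their values were seen. Without the first control library 5 were called lower, and without both first libraries 6. In those fits the median over all tested genes was also lower, at -0.030 and -0.048, against -0.0044. The shares of all tested genes called lower in those fits are not given here, so these counts are read no further.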

How the data were processed

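Bead-enriched mRNA of 3 resistant and 3 control samples was made into libraries with a KAPA stranded kit, per the labels' protocols. The authors deposited TPM per gene. HISAT2 is named, without a version, per the submitters' processing notes. Counting tool, genome build and annotation: not given in the sources used here. Positions are GENCODE 29 (GRCh38). Reads were estimated from TPM, union exon length and the smallest step per library (whole within 0.01 for 67.2% to 67.9% of values), so depth is approximate.

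Genes that reached 1 TPM in 3 or more libraries were fitted with limma 3.58.1 (R 4.3.3, statmod 1.5.0) on log2(TPM + 1), with trend and robust moderation, two-sided, Benjamini-Hochberg over 16077 genes; the design's count test was not used because the table holds TPM. The fit was tested on simulated data. Alternatives were a pseudocount of 0.1, no filter, a filter at 5 TPM, median-ratio scaling, a replicate block and each library left out. The members, lists, roles and naming rule were chosen with earlier results of these data known. Per-library values are given for 8 listed genes of known roles and the 5 most and 5 least negative; of unlisted chromosome 13 genes with 5 TPM and no overlap, the 8 most extreme each way (5 qualified as higher, and 1 of the lower is not reported here); of partners, called genes at 0.5 or more and single partners. The partner TUBGCP5 was not found. Replicates differed by more than counting noise (chi-square per gene 3.87 to 11.0). Replicate numbers did not pair the libraries. Sequences are RefSeq's.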

Additional observations from a re-analysis of the deposited data

How the results depend on the processing

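With a pseudocount of 0.1, without a filter and with a filter at 5 TPM, the median change of unlisted chromosome 13 genes was -0.55, -0.35 and -0.55, against -0.48, and the SD over listed genes was 0.29, 0.27 and 0.22, against 0.26. At 5 TPM 4 unlisted genes were called higher, against 10, and under median-ratio scaling 5 E2F targets were called lower, against 3. With both first libraries left out, added after seeing the data, the median was -0.70 for listed and -0.56 for unlisted genes. There 52 partners were called lower, against 33, and 6 E2F targets, while the median over all tested genes was -0.048, against -0.0044. Leaving out 1 library at a time gave 47 to 54 listed genes called lower, a median of -0.55 to -0.45 and 4 to 9 called higher for unlisted genes, and 3 to 5 E2F targets called lower. Leaving out a resistant library also took DZIP1, LHFP, SLITRK5 and THSD1 below the filter, which lowered the count called higher. Among named genes, UGGT1 (-0.021 to 0.023 over single left-out libraries) turned to 0.017 under median-ratio scaling and to 0.023, 0.0059 and 0.013 without the third control, the second resistant and the third resistant library. ESD (-0.043 to 0.10) turned to -0.043, -0.0092 and -0.082 as given above, RBM27 (-0.11 to 0.023) to 0.012 and 0.023 without the second control and the second resistant library, and TFDP2 to -0.0024 without both first libraries. The cause was not tested. With the replicate block 45 listed genes were called lower, against 54, but libraries with the same number did not deviate together (r = -0.058, -0.0017 and -0.016), so the numbers were not taken as pairs. The shares of all tested genes called under the alternatives are not given here, so the counts of calls are read no further. Of the values of named genes under the alternatives, 617 kept direction and call, 39 lost the call, 7 gained one and 10 changed sign. Estimated depth limits the lowest genes most.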

Other observations

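Non-coding genes and pseudogenes of chromosome 13 had a change below 0 in 72.1% of cases, against 91.3% of its coding genes, a difference that was not tested. Of 68 tested, 19 were called lower (27.9%) and 2 higher (2.94%), where 24.7% and 24.0% of all tested genes were, and their median change was -0.26. Many of them lay near the 1 TPM filter, with a lowest mean of 0.731 TPM, where the added 1 TPM makes changes smaller. Some are processed pseudogenes, and the handling of reads that match several copies is not given in the sources used here. The genes named here were chosen after their values were seen. LINC00346, a long non-coding RNA, had 52.7, 52.5 and 49.7 TPM in the resistant libraries, against 65.8, 62.7 and 67.4 TPM in the control libraries (log2 -0.33 ± 0.047, adjusted p = 9.34e-04). LINC00355 was listed at 0 in all resistant libraries, against 1.11, 1.45 and 2.08 TPM in the control libraries. It passed the filter only through the control libraries and is read no further. GAS6-AS1, antisense to GAS6, rose and had 12.8, 12.97 and 10.4 TPM in the resistant libraries, against 5.27, 8.24 and 6.16 TPM in the control libraries (log2 0.80 ± 0.15, adjusted p = 0.00386), and GAS6 itself was also called higher. Reads from a gene and its antisense partner cannot be told apart if counting did not use strand, which is not given in the sources used here. DLEU2, a non-coding gene of the deleted region known from lymphocytic leukaemia, was at -0.14 and was not called (adjusted p = 0.378).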
